A study of Homo sapiens with 4 samples.

Results

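The RNA of 10 imprinted genes, taken from a deposited table of 58274 genes, was followed through human hematopoietic differentiation: H19, MEG3, DLK1, PEG3, PEG10, SNRPN, CDKN1C, MEST, NNAT and PLAGL1. They were found by their gene symbol, and each had 1 gene identifier. The table held 4 RNA libraries, all from BC1, an induced pluripotent stem cell (iPSC) line of human origin. The first was made from undifferentiated BC1 cells. The other 3 came from differentiating BC1 cells, sorted as APLNR+ mesoderm on day 2 and as CD31+CD34+ hemogenic endothelial progenitors (HEPs) on day 5. CD43+ hematopoietic progenitor cells (HPCs) were sorted on day 8. By the protocol of the study, the cells first received activin A and BMP4. VEGF and bFGF followed only after 2 days, about when the APLNR+ cells were sorted, so factor treatment differed between APLNR+ and the later populations. All cells thus came from 1 line, and each population had 1 library, so no difference below has a replicate check and no test between populations was possible.

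An imprinted gene is transcribed mainly or only from the copy inherited from 1 parent, because CpG methylation laid down in the egg or the sperm marks the other copy or a control element nearby. Imprinted genes lie in clusters, act largely on fetal and placental growth, and are known as a group whose marks can drift in pluripotent cell lines in culture. H19, MEG3 and CDKN1C are expressed from the maternal copy, and the other 7 genes from the paternal copy. The libraries did not separate the copies, so each value below is the RNA of both.

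Positions of genes are those of the table, on GRCh38, with the gene identifier in brackets. Levels are in FPKM, fragments scaled to the length of the transcript and to the mapped fragments of the library, so that genes of different length can be compared. The depth recovered from the values was 19600000, 21100000, 23200000 and 21400000 mapped fragments in the order of the populations. Intervals are 95% intervals of the counting error from estimated fragments, and do not cover the variation between cultures or sorts. A level of at most 3 fragments was taken as the floor. Of 38 genes that every cell uses, 0 were listed at 0, and the lowest value was 4.61 FPKM. A listed 0 was read as no fragment assigned. These genes cannot show how fragments of low or overlapping genes were assigned. Differences are given on the scale log2(FPKM + 1), and a gene was counted as higher or lower when it differed by at least 1 on that scale, which understates the fold of a low gene. The sorted populations carried the markers of their labels. The summed level of 7 pluripotency markers was 3529 FPKM in BC1 and 172 FPKM in CD43+. In APLNR+ it was still 1233 FPKM, with 5 of 7 at 1 FPKM or more. That of 7 hematopoietic markers was 11.9 FPKM in BC1 and 7044 FPKM in CD43+, of which HBE1 made up 5271 FPKM. The 6 mesoderm markers summed to 2218 FPKM in APLNR+, and the 7 endothelial markers to 1382 FPKM in CD31+CD34+. These are bulk libraries, in which fewer cells of a type and less RNA per cell cannot be told apart.

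The starts of the genes are shown first, since imprinting acts on CG dinucleotides at or near such starts. RefSeq promoter windows of 300 bases, from 250 bases before to 50 bases after the start of transcription, were found for H19, MEG3, SNRPN, MEST and PLAGL1. DLK1, PEG3, PEG10, CDKN1C and NNAT had no entry. For each gene the window with the most CG dinucleotides is printed 5′ to 3′, with every CG in capitals. H19 and MEG3 are shown as genes whose RNA stayed low, SNRPN and MEST as genes whose RNA was abundant in all 4 libraries, and PLAGL1 as a gene that differed between them. The windows lie on GRCh38, for H19 at chr11:2001217-2001516 on the minus strand, for MEG3 at chr14:100825858-100826157 on the plus strand, for SNRPN at chr15:24954737-24955036 on the plus strand, for MEST at chr7:130491835-130492134 on the plus strand and for PLAGL1 at chr6:144008210-144008509 on the minus strand.
H19: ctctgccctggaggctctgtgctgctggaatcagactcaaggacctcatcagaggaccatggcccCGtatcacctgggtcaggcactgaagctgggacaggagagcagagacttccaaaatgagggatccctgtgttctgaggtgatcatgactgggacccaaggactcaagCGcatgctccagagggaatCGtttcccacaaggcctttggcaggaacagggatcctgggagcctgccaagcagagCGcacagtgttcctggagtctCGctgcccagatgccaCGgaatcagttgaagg
MEG3: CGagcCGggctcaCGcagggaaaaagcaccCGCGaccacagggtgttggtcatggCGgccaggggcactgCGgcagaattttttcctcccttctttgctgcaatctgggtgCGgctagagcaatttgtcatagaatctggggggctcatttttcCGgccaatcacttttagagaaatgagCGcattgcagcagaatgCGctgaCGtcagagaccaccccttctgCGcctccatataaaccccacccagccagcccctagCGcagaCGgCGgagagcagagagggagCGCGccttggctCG
SNRPN: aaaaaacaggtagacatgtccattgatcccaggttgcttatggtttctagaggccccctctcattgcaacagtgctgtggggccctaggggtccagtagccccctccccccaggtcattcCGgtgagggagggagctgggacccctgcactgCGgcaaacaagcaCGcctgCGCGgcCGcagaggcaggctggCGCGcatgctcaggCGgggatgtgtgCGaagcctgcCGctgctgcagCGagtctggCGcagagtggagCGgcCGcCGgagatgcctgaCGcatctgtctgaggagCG
MEST: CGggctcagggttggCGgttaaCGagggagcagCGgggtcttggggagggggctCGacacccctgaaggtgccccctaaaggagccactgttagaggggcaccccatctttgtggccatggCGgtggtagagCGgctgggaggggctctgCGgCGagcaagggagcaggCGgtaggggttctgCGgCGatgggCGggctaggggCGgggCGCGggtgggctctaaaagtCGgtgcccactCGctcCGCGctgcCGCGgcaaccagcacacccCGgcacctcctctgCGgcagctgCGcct
PLAGL1: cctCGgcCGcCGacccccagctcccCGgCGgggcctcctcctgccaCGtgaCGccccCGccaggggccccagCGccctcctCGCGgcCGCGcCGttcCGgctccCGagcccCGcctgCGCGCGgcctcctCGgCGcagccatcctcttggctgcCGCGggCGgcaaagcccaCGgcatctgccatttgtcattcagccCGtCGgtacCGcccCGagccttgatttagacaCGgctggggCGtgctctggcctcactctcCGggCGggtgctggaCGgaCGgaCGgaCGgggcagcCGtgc

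The windows of PLAGL1, MEST, MEG3, SNRPN and H19 held 39, 25, 19, 18 and 6 CG dinucleotides, against a median of 14 over 35116 promoter windows. Since the richest window was chosen for each gene, these counts are a description and not a comparison with other promoters. The 5 windows of PLAGL1 held between 2 and 39 CG dinucleotides, whereas H19 had 1 window. The letters TGCCGC, the hexamer that the zinc finger protein ZFP57 reads when it is methylated, were searched on both strands, and matches that overlap were counted separately. They occurred 3 times in the printed window of MEST, 2 times each in those of PLAGL1 and SNRPN, 1 time in that of MEG3 and 0 times in that of H19. Of all promoter windows 16.7% held at least 1 match, and of the 18 windows of the 5 genes, several of which overlap, 10 did. Genes with abundant and with scarce RNA both had matches. Methylation was not measured, and a match is only a match of letters.

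**Figure D1:**
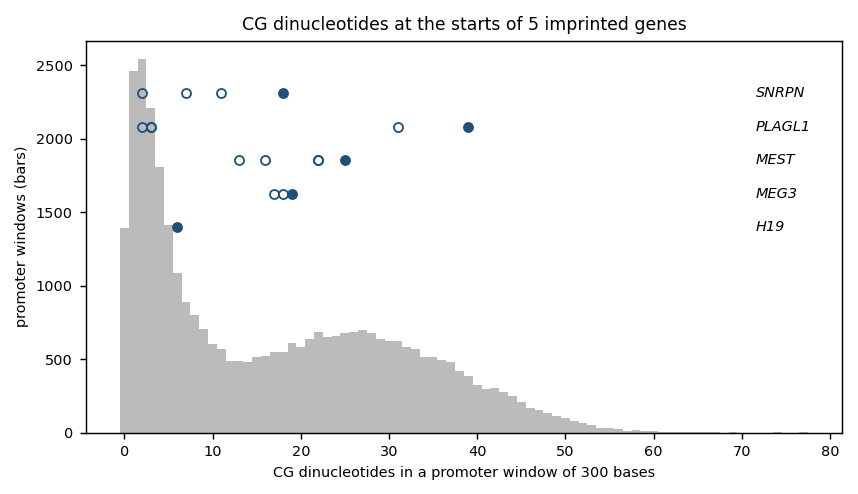
Number of CG dinucleotides (horizontal axis) in promoter windows of 300 bases. Bars count all 35116 windows (vertical axis), and the circles, placed by row for each gene, are the windows of 5 imprinted genes, filled for the printed window. The filled circle of PLAGL1 lies at 39 and that of H19 at 6.

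The 10 genes spread over nearly the whole range of expression, and 8 of them reached at least 1 FPKM in at least 1 library, the filter that 17137 of all genes passed. MEG3 and PEG3 did not reach it. The genes did not move in 1 direction. Summed over the 10 genes, the level was 854 FPKM in BC1 cells, 741 in mesoderm, 385 in HEPs and 791 in HPCs. SNRPN made up 71.6%, 53.8% and 48.9% of the sum in the first 3 populations, and DLK1 52.5% in CD43+.

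**Figure D2:**
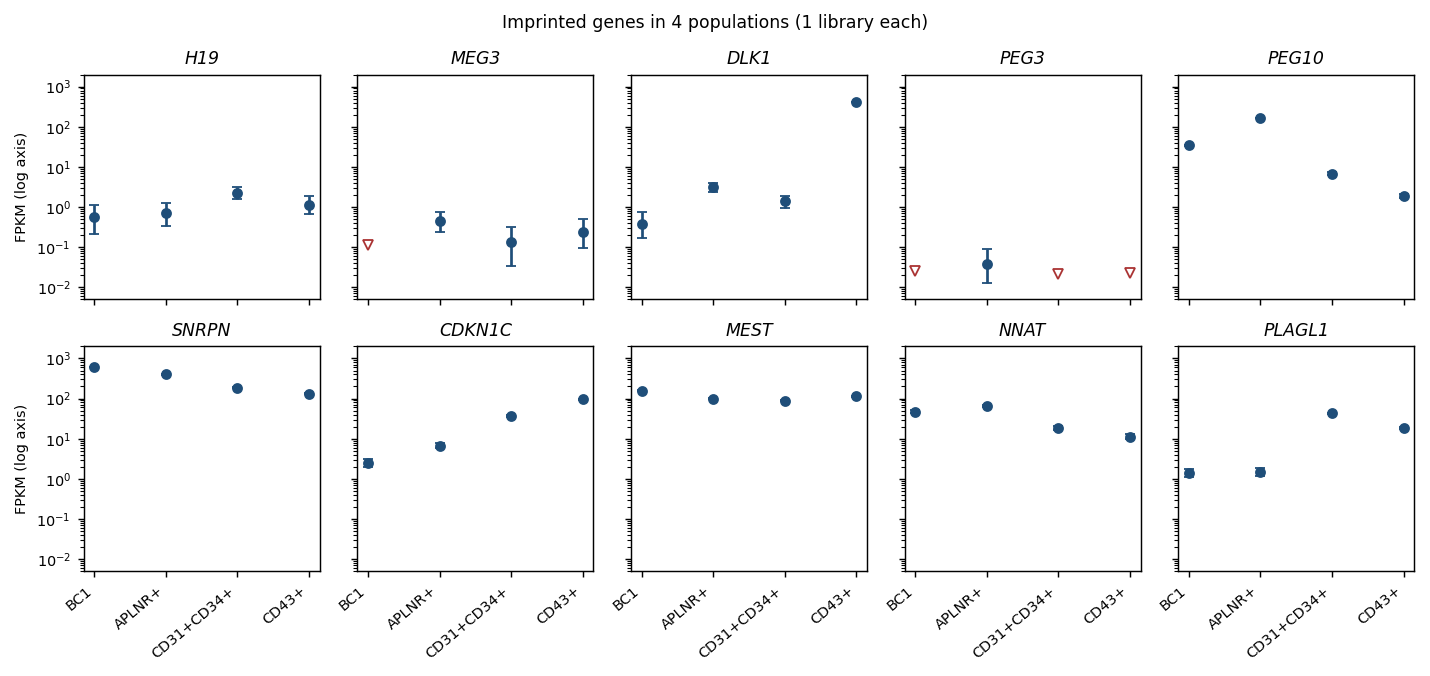
FPKM (log axis) of each gene in the 4 libraries. Points are single libraries with 95% counting intervals, and open red triangles mark the floor of 3 fragments where the value did not exceed it. DLK1 was at 415 FPKM in CD43+, while PEG3 exceeded the floor only in APLNR+ and MEG3 stayed below 0.5 FPKM.

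DLK1 showed the widest range of the 10. It encodes a transmembrane protein with EGF repeats, of the family of the Delta ligands, that is known from fetal liver, placenta and adipocyte precursors. The gene lies on chromosome 14, from 100725705 to 100738224 on the plus strand (ENSG00000185559.13). Its level was 0.379 FPKM in BC1 cells, 3.11 in mesoderm, 1.38 in HEPs and 415 in HPCs. CD43+ cells stood far apart from the other 3 populations, with about 9314 estimated fragments against 8, 71 and 34. From CD31+CD34+ to CD43+ the level was 301-fold higher (95% interval from counting 215 to 435), a log2 difference of 7.45, which ranked 10th highest among 17137 genes. In the order of the 17137 genes by level, DLK1 was at place 13254 in CD31+CD34+ and at place 202 in CD43+. The earlier differences were smaller: 8.22-fold higher (3.91 to 19.6) in APLNR+ than in BC1, and 2.26-fold lower (1.48 to 3.50) in CD31+CD34+ than in APLNR+. The levels in all 4 populations differed beyond counting error. The fragments were computed for a transcript of 1324 bases, the median of the coding ones, whereas the longest has 4722 bases.

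Since DLK1 is also abundant in stromal and liver progenitor cells, markers of these were followed beside it. The 7 stromal markers summed to 34.5, 45.3, 205 and 36.9 FPKM in the order of the populations, with 4 of 7 at 1 FPKM or more in both CD31+CD34+ and CD43+. COL1A1 made up most of the sum, at 184 FPKM in HEPs and 27.7 FPKM in HPCs. From HEPs to HPCs COL3A1 went from 8.94 to 4.87 FPKM, PDGFRA from 4.96 to 0.151 FPKM and PDGFRB from 6.69 to 2.56 FPKM. POSTN went from 0 to 1.20 FPKM and LUM from 0.187 to 0.376 FPKM, and DCN was listed at 0 in both. The 7 endoderm and liver markers summed to 51.2, 122, 38.2 and 21.9 FPKM, with 3 of 7 at 1 FPKM or more in CD43+. In that library ALB was at 16.1 FPKM, AFP at 0.104 FPKM and HNF4A at 0.318 FPKM. The hematopoietic markers summed to 264 FPKM in HEPs and 7044 FPKM in HPCs. The part of any of these lists in the level of DLK1 was not tested. The genes whose profile over the 4 libraries was most like that of DLK1 were HBD, PPBP and PLEK, with root mean squared differences of 0.491, 0.619 and 0.698 on the log2 scale among 9430 genes. HBD encodes a globin chain, PPBP a platelet chemokine and PLEK a protein of platelets and leukocytes. Of these, PPBP was at 0.334, 0.206, 0.194 and 256 FPKM.

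MEG3 is the maternally expressed long noncoding RNA beside DLK1, on chromosome 14 from 100779410 to 100861031 on the plus strand (ENSG00000214548.14), and its loss is a known mark of some pluripotent cell lines. It was at 0.0120 FPKM in BC1 cells, 0.460 in mesoderm, 0.136 in HEPs and 0.244 in HPCs. For the median transcript of 1621.5 bases, about 13 fragments were the most in any library, and BC1 was under the floor. The longest transcript has 12990 bases and would give more fragments and narrower intervals. The level in APLNR+ was 3.38-fold higher than in CD31+CD34+ (1.09 to 14.8). It was 4.10-fold the floor of BC1, a figure that leaves out the counting error of APLNR+. The counting intervals did not overlap, with a lower limit of 0.237 FPKM in APLNR+ and an upper limit of 0.138 FPKM in BC1. The order of APLNR+ and CD43+ could not be settled from counting at the median length, since the interval of their ratio ran from 0.681 to 5.43. In CD43+, the ratio of DLK1 to MEG3 by FPKM was 1700, against 6.77 in APLNR+ and 10.1 in CD31+CD34+. No ratio is given for BC1, where MEG3 was under the floor. The other genes of the locus were low as well. MEG8 was listed at 0 in every library, RTL1 did not exceed 0.0948 FPKM, and MEG9 did not exceed 0.794 FPKM. DIO3, which encodes the deiodinase that inactivates thyroid hormone, followed another course, with 0.248, 8.38, 0.976 and 0.0509 FPKM. It was 33.8-fold higher in APLNR+ than in BC1 (17.5 to 74.3) and 8.59-fold lower in CD31+CD34+ (6.17 to 12).

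CDKN1C differed in 1 direction throughout. It encodes an inhibitor of cyclin-dependent kinases that restrains growth, and lies on chromosome 11 from 2883213 to 2885881 on the minus strand (ENSG00000129757.12). Its level was 2.52 FPKM in BC1 cells, 6.72 in mesoderm, 36.3 in HEPs and 95.2 in HPCs. Each later population was higher beyond counting error: 2.67-fold (2.04 to 3.51), 5.41-fold (4.68 to 6.28) and 2.62-fold (2.45 to 2.80). Over the whole course the level was 37.8-fold higher (30.0 to 48.1). It was the only one of the 10 genes past the threshold in the same direction at all 3 transitions. Among all genes, ZFPM2, EMP3 and MYB had the profiles most like it, with root mean squared differences of 0.0981, 0.140 and 0.248.

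The related inhibitors CDKN1A and CDKN1B took other courses. CDKN1A was at 12.6, 23.7, 228 and 111 FPKM in the order of the populations, so that it was highest in CD31+CD34+. CDKN1B was at 9.51, 13.6, 24.1 and 22.2 FPKM. The ratio of CDKN1C to CDKN1B by FPKM went from 0.265 in BC1 to 4.29 in CD43+, and that of CDKN1C to CDKN1A from 0.200 to 0.854.

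The neighbours of CDKN1C share a control element, at which the paternal noncoding RNA KCNQ1OT1 starts. SLC22A18, a transporter gene, was at 2.20, 4.02, 12.1 and 11.6 FPKM. PHLDA2, which restrains placental growth, was at 0.219, 0.337, 2.76 and 0.483 FPKM. KCNQ1, the gene of a potassium channel, was at 1.44, 0.558, 3.38 and 0.85 FPKM. All 3 were higher in CD31+CD34+ than in APLNR+ by at least 1 on the log2 scale, as CDKN1C was. In CD43+, PHLDA2 and KCNQ1 were lower again, 5.71-fold (2.46 to 16.9) and 3.98-fold (2.25 to 7.52), while CDKN1C was higher. KCNQ1OT1 was at 0.0853, 0.0739, 0.152 and 0.309 FPKM, or about 153, 143, 321 and 603 estimated fragments over 91667 bases. It lies within KCNQ1 on the opposite strand, and the use of strand is not given. Fragments from introns of KCNQ1 may thus have been counted as KCNQ1OT1. It was low but differed beyond counting error at the last 2 steps, 2.05-fold higher (1.67 to 2.50) and 2.04-fold higher (1.78 to 2.34), and was 3.62-fold higher in CD43+ than in BC1 (3.02 to 4.34).

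PLAGL1 was highest in the endothelial population. It encodes a zinc finger transcription factor, and lies on chromosome 6 from 143940300 to 144064599 on the minus strand (ENSG00000118495.18). Its level was 1.41 FPKM in BC1 cells, 1.5 in mesoderm, 43.1 in HEPs and 18.2 in HPCs. The first 2 populations did not differ beyond counting error (1.07-fold, 0.754 to 1.5). CD31+CD34+ cells were 28.8-fold above APLNR+ (22.8 to 36.6), and CD43+ cells were 2.37-fold below CD31+CD34+ (2.19 to 2.56). The genes most like it were EXOC3L2, EGFL7 and IL16, with root mean squared differences of 0.0927, 0.128 and 0.161. EGFL7 is known as an endothelial gene, and was at 33.7, 36.1, 800.1 and 302 FPKM. The endothelial markers, of which 7 of 7 were at 1 FPKM or more in CD31+CD34+, summed to 49.1, 75.9, 1382 and 299.8 FPKM, and their part in the level of PLAGL1 was not tested. The paralogue PLAG1 was also highest in CD31+CD34+, though by far less, at 4.58, 4.37, 6.78 and 4.39 FPKM. Its counting interval in CD31+CD34+ was 5.98 to 7.67 FPKM. The paralogue PLAGL2 did not have this peak, with its lowest level, 6.93 FPKM, in CD31+CD34+ and its highest at 9.81 FPKM. HYMAI, the noncoding RNA that starts within PLAGL1, did not exceed 0.111 FPKM.

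H19 and its neighbour IGF2 were followed together, because they share enhancers and are expressed from opposite copies. H19 is an abundant noncoding RNA of fetal tissues, on chromosome 11 from 1995163 to 2001470 on the minus strand (ENSG00000130600.17). It was at 0.569 FPKM in BC1 cells, 0.712 in mesoderm, 2.24 in HEPs and 1.12 in HPCs. These rest on about 7, 10, 35 and 16 fragments, so H19 was low in all 4 libraries. The fragments were computed for the median transcript of 925 bases, whereas the longest has 2348 bases and would give narrower intervals. The level in CD31+CD34+ was 3.15-fold above APLNR+ (1.59 to 7.42) and 2.00-fold above CD43+ (1.06 to 3.82), but neither difference reached 1 on the log2 scale. With a pseudocount of 0.1 FPKM the first was 1.53 in place of 0.92, past the threshold. Neighbours in the order of BC1, APLNR+ and CD43+ did not differ beyond counting error at the median length. IGF2, a fetal growth factor, was at 3.04, 10.6, 35.9 and 40.3 FPKM. It was 13.3-fold higher in CD43+ than in BC1 (11.3 to 15.6). The ratio of IGF2 to H19 by FPKM was 5.34, 14.9, 16.0 and 36.0 in the order of the populations. The antisense RNA IGF2-AS exceeded 1 FPKM only in CD31+CD34+, at 1.54 FPKM.

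PEG10 was highest in mesoderm. It descends from a retrotransposon, encodes gag-pol-like proteins and is needed for the placenta in mice. It lies on chromosome 7 from 94656325 to 94669695 on the plus strand (ENSG00000242265.5). Its level was 35 FPKM in BC1 cells, 165 in mesoderm, 6.83 in HEPs and 1.89 in HPCs. The APLNR+ library stood above the others, 4.71-fold over BC1 (4.56 to 4.87). From APLNR+ to CD31+CD34+ the level was 24.2-fold lower (22.6 to 25.8), a log2 difference of -4.41 that ranked 60th lowest among 17137 genes. It was a further 3.61-fold lower in CD43+ (3.13 to 4.16). Because PEG10 is abundant in the placenta, trophoblast markers were followed beside it. The 7 markers summed to 8.49, 32.1, 43.5 and 3.36 FPKM, with 1, 2, 2 and 1 of 7 at 1 FPKM or more. GATA3 carried most of the sum after BC1, at 0.431, 30.0, 40.1 and 2.80 FPKM. TFAP2A was at 0.0311, 1.85, 3.40 and 0.562 FPKM, and KRT7 at 8.03 FPKM in BC1 and 0.0842 FPKM in APLNR+. CGB3 and ELF5 were listed at 0 in all 4 libraries, and CGA and PSG1 did not exceed 0.0949 FPKM. The part of these markers in the level of PEG10 was not tested.

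The neighbours of PEG10 did not share its peak in APLNR+ or its lower level in CD31+CD34+ than in APLNR+. From CD31+CD34+ to CD43+, SGCE and TFPI2 were lower, as PEG10 was, and PPP1R9A was not. SGCE, the epsilon-sarcoglycan gene that starts beside PEG10 on the opposite strand, was at 7.48, 8.47, 11.6 and 0.543 FPKM. It was not lower in CD31+CD34+, where PEG10 was, and was 21.4-fold lower in CD43+ (12.7 to 37.1). TFPI2, the gene of a protease inhibitor, was at 7.09, 3.64, 140 and 5.49 FPKM, highest in CD31+CD34+. PPP1R9A, which encodes neurabin, was at 2.67, 0.429, 0.837 and 1.16 FPKM. The ratio of PEG10 to SGCE by FPKM was 4.68, 19.5, 0.587 and 3.48.

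SNRPN was the most abundant of the 10 genes in the first 3 populations. It encodes SmN, a core protein of the spliceosome, and its start carries the imprinting control element of the Prader-Willi region. It lies on chromosome 15 from 24823637 to 24978723 on the plus strand (ENSG00000128739.21). Its level was 612 FPKM in BC1 cells, 399 in mesoderm, 188 in HEPs and 134 in HPCs. Each population was lower than the one before, by 1.53-fold (1.5 to 1.57), 2.12-fold (2.05 to 2.18) and 1.41-fold (1.35 to 1.47), of which the second step passed the threshold. In all, CD43+ was 4.57-fold below BC1 (4.41 to 4.74). The genes most like it were TATDN1, TRIM71 and TACC2, with root mean squared differences of 0.0255, 0.0511 and 0.0913. TRIM71 is a gene of stem and early embryonic cells.

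SNURF shares 23.8% of the exon bases of SNRPN on the same strand, so how fragments were divided between them is uncertain. SNURF was at 26.0, 4.84, 5.50 and 6.32 FPKM. Summed, the pair was at 638, 403, 194 and 140 FPKM, again lower at each step. SNHG14, the long host RNA of small nucleolar RNAs that continues from this locus, was at 186, 92.2, 43.6 and 50.1 FPKM. It was 3.72-fold lower in CD43+ than in BC1 (3.45 to 4.01). The paternal genes NDN and MAGEL2 encode MAGE family proteins. NDN stayed between 9.26 and 13.7 FPKM, and MAGEL2 was at 1.22, 0.958, 0.390 and 0.0115 FPKM. NPAP1 reached 1.88 FPKM in APLNR+ and was listed at 0 in CD31+CD34+ and CD43+. UBE3A, a ubiquitin ligase gene imprinted mainly in neurons, stayed between 18.0 and 27.7 FPKM.

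SNRPB encodes SmB, the ubiquitous protein whose place SmN takes. It was at 519, 473, 323 and 372 FPKM. The ratio of SNRPN to SNRPB by FPKM was 1.18, 0.842, 0.584 and 0.360 in the order of the populations. SNRPN thus exceeded SNRPB only in the undifferentiated cells. The genes are related in sequence, and how the authors assigned fragments that match both is not given in the sources used here.

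**Figure D3:**
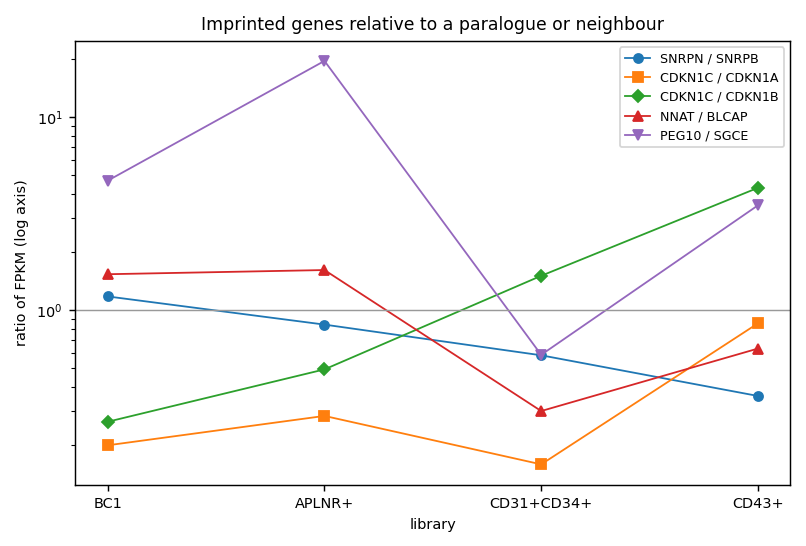
Ratio of FPKM (log axis) of an imprinted gene to a paralogue or neighbour in the 4 libraries, with a line at equal levels. The ratio of SNRPN to SNRPB was 1.18 in BC1 and 0.360 in CD43+, and that of CDKN1C to CDKN1B was 0.265 and 4.29.

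MEST was the steadiest of the genes that were expressed. It encodes an enzyme-like protein of the alpha/beta hydrolase fold that is abundant in mesoderm, and lies on chromosome 7 from 130486171 to 130506296 on the plus strand (ENSG00000106484.14). Its level was 155 FPKM in BC1 cells, 98.6 in mesoderm, 87.8 in HEPs and 114 in HPCs. The highest level was 1.77-fold the lowest, and no comparison reached the threshold. MEST was nevertheless among the 1113 most abundant genes in each library. The lowest pair, APLNR+ and CD31+CD34+, differed 1.12-fold (1.07 to 1.17). COPG2, the coat protein gene that runs toward MEST from the other strand and shares 4.76% of its exon bases, was at 19.2, 12.1, 17.9 and 11.8 FPKM.

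NNAT was higher in the first 2 populations than in the last 2. It encodes neuronatin, a small membrane protein known from brain and pancreas, and lies on chromosome 20 from 37521215 to 37523693 on the plus strand (ENSG00000053438.8), within the gene BLCAP. Its level was 47.2 FPKM in BC1 cells, 66.0 in mesoderm, 18.8 in HEPs and 11.2 in HPCs. APLNR+ was 1.40-fold above BC1 (1.28 to 1.53), and CD31+CD34+ was 3.51-fold below APLNR+ (3.12 to 3.95). CD43+ was lower again, 1.68-fold (1.41 to 2.01). GDF3, a gene of pluripotent cells, ANKS6 and FBXO27 were most like it, with root mean squared differences of 0.0674, 0.0797 and 0.107. BLCAP followed another course, at 30.8, 40.9, 62.5 and 17.7 FPKM, highest in CD31+CD34+. Neural markers were followed beside NNAT. PAX6 did not exceed 0.302 FPKM, SOX1 did not exceed 0.0787 FPKM and NEUROD1 was listed at 0 in all 4 libraries, whereas TUBB3 was at 275, 108, 36.0 and 6.28 FPKM. The 7 markers summed to 279, 109, 36.3 and 6.53 FPKM, with 2 of 7 at 1 FPKM or more in BC1 and 1 of 7 in each other library. Their part in the level of NNAT was not tested.

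PEG3, a zinc finger gene on chromosome 19 from 56810083 to 56840728 on the minus strand (ENSG00000198300.12), was listed at 0 in BC1, CD31+CD34+ and CD43+, where the floor of 3 fragments corresponds to 0.0249, 0.0211 and 0.0229 FPKM. In APLNR+ it was at 0.0385 FPKM, or 5 estimated fragments. At this depth, expression in the other populations was not detectable. ZIM2, which shares 12.9% of its exon bases, and USP29 and MIMT1 beside it were listed at 0 in every library. All 4 genes of the locus were thus at or near 0.

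**Figure D4:**
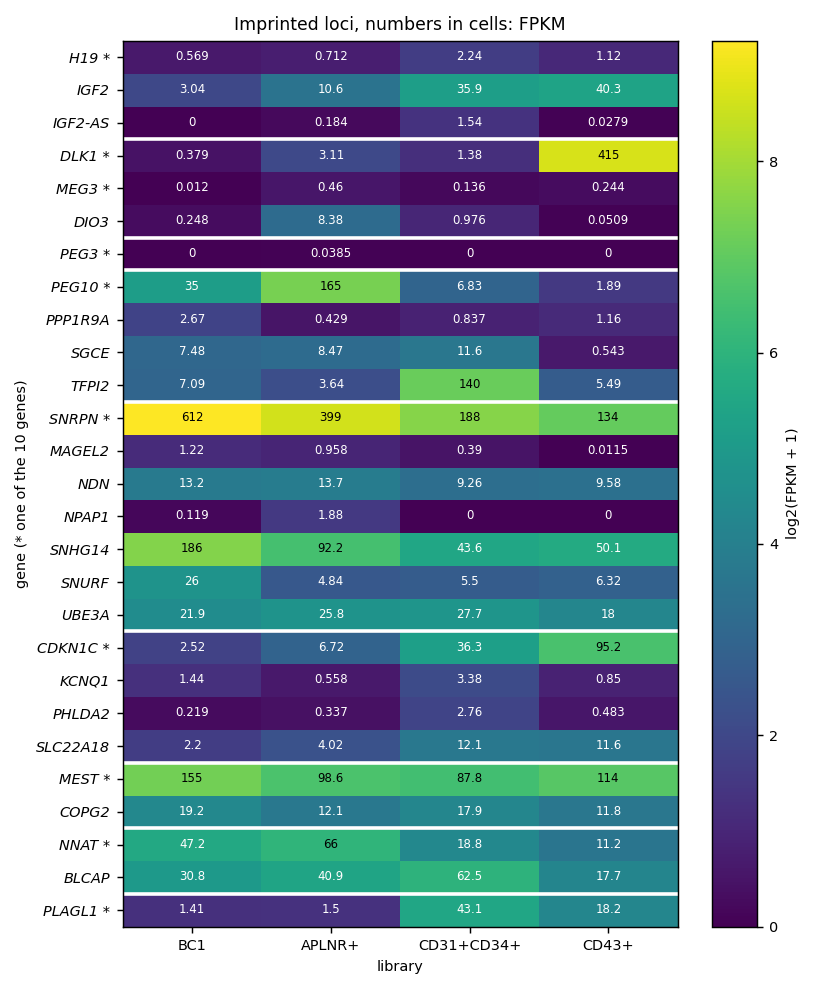
Levels of the 10 genes (asterisks) and of the 17 neighbours that reached 1 FPKM, grouped by locus, in the 4 libraries. Colour is log2(FPKM + 1) and the numbers are FPKM. DLK1 and MEG3, at 415 and 0.244 FPKM in CD43+, and PEG10 and SGCE, at 165 and 8.47 FPKM in APLNR+, are neighbours with unlike levels.

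The genes were then counted by comparison, beside the share of all 17137 genes that passed the same threshold. The comparisons share libraries and are not independent. From BC1 to APLNR+, DLK1, PEG10 and CDKN1C were higher, 3 of 8 genes kept, and 0 were lower, against 9.15% of all genes higher and 9.32% lower. From APLNR+ to CD31+CD34+, CDKN1C and PLAGL1 were higher and PEG10, SNRPN and NNAT lower, against 13.0% and 11.4% of all genes. From CD31+CD34+ to CD43+, DLK1 and CDKN1C were higher and PEG10 and PLAGL1 lower, against 7.63% and 13.5%. From BC1 to CD43+, 3 genes were higher, DLK1, CDKN1C and PLAGL1, and 3 lower, PEG10, SNRPN and NNAT, against 15.2% and 18.9%. The median difference of the 8 genes was 0.30, -0.48, -0.55 and -0.00246 in these comparisons, and that of all genes 0.00, 0.01, -0.08 and -0.06. Genes that pass the filter through 1 high library are more apt to pass the threshold, so these shares are a description and say nothing particular of the list.

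**Figure D5:**
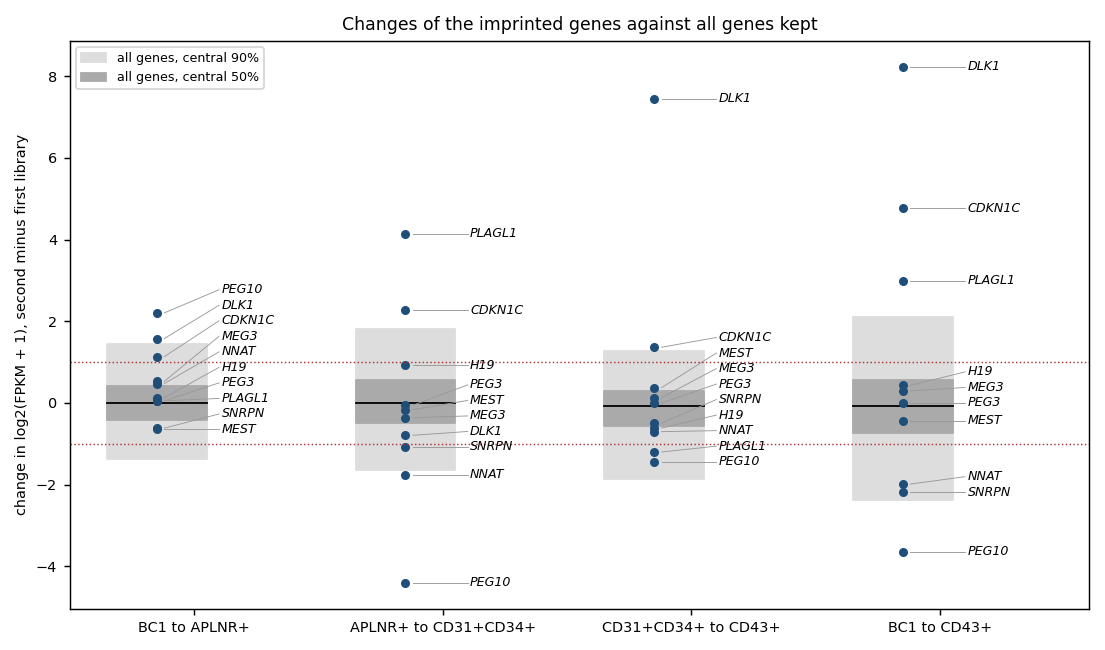
Difference in log2(FPKM + 1) of each of the 10 genes (points) in 4 comparisons, second library minus first. Grey boxes hold the central 90% and 50% of 17137 genes with their median as a line, and dotted lines mark the threshold of 1. DLK1 stands at 7.45 from CD31+CD34+ to CD43+ and PEG10 at -4.41 from APLNR+ to CD31+CD34+.

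A wider list of 45 other imprinted genes, on 46 gene identifiers since HYMAI was listed more than once, held 28 that passed the filter. Of these, 17 were neighbours of the 10. From BC1 to APLNR+, 3 were higher (IGF2, DIO3 and NPAP1) and 3 lower (PPP1R9A, SNURF and SNHG14). From APLNR+ to CD31+CD34+, 7 were higher and 3 lower, and from CD31+CD34+ to CD43+, 0 were higher and 6 lower. From BC1 to CD43+, 4 were higher and 5 lower. The shares of all genes in these comparisons were 9.15% higher and 9.32% lower, 13.0% and 11.4%, 7.63% and 13.5%, and 15.2% and 18.9%, and several of the counts are close to them. The median differences of the 28 genes were 0.14, 0.29, -0.25 and -0.29, beside 0.00, 0.01, -0.08 and -0.06 for all genes. Away from the loci of the 10 genes, RB1 and INPP5F were the genes that reached 10 FPKM and passed the threshold in a comparison. RB1, the retinoblastoma gene, was at 6.48, 6.53, 17.5 and 14.1 FPKM, and INPP5F, a phosphatase gene, at 77.5, 80.9, 54.4 and 29.5 FPKM. NAP1L5, also higher in CD43+ than in BC1 but singled out only after its values were seen, was at 1.13, 1.74, 3.38 and 3.95 FPKM.

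The genes were last grouped by the copy that is expressed, over both lists, with 5 maternally and 19 paternally expressed genes that passed the filter. Genes listed as maternal or tissue-dependent were put in neither group. Those that passed the filter were TFPI2, PPP1R9A, UBE3A, COPG2, BLCAP, GNAS, GNAS-AS1, IGF2R, GRB10, INPP5F, RB1 and ZNF331. The median difference of the maternal group was 0.13 from BC1 to APLNR+, 1.49 from APLNR+ to CD31+CD34+, -0.61 from CD31+CD34+ to CD43+ and 0.43 from BC1 to CD43+. That of the paternal group was 0.20, -0.49, -0.04 and -0.25 in these comparisons. Neither group was above the other throughout. From APLNR+ to CD31+CD34+, 4 maternal genes were higher and 0 lower, and 3 paternal genes were higher and 6 lower, against 13.0% and 11.4% of all genes. From CD31+CD34+ to CD43+, 1 maternal gene was higher and 2 lower, and 1 paternal gene was higher and 4 lower, against 7.63% and 13.5%. The 4 maternal genes, CDKN1C, PHLDA2, SLC22A18 and KCNQ1, lie in 1 domain of chromosome 11 and are not independent of each other. The same holds for paternal genes in the comparison from APLNR+ to CD31+CD34+. IGF2 and IGF2-AS, both higher, share a locus, as do SNRPN, SNHG14 and NPAP1, all lower.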

How the data were processed

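RNA of 4 cell populations was sequenced, with 1 library each. The authors deposited 1 table of FPKM values for all genes. Which program gave the values, its version and its use of strand are not stated in the sources used here. The submitters' processing notes name BWA, Bowtie, RSEM and hg19 without a role, whereas the positions in the table match GRCh38: of 55605 gene identifiers shared with GENCODE release 29 by version, 55603 had the same start and end. That the unit is FPKM was taken from an axis of the study and from the values. Reads of genes that overlap on opposite strands may therefore have been counted together where they overlap. Such pairs are PEG10 and SGCE, MEST and COPG2, NNAT and BLCAP, and KCNQ1 and KCNQ1OT1.

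Rows of 1 gene identifier were summed, and 0 columns of values were left unused. Genes that reached 1 FPKM in at least 1 library were kept. The depth and the length taken off each transcript were recovered from the steps of low FPKM values of genes with 1 transcript, of which between 93.3% and 95.4% fell within 0.1 of a whole number of fragments. A gene's fragments were then estimated with its median transcript length, and 95% intervals (exact Poisson for levels, exact Clopper-Pearson for ratios) cover counting error only. The steps were tested on simulated data. Promoter sequences are from RefSeq (GRCh38).

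The genes and lists were chosen with earlier results of these data known. The genes named were the 10 imprinted genes, their neighbours at 1 FPKM or more, other imprinted genes that reached 10 FPKM and differed by at least 1 on the log2 scale, imprint maintenance genes, paralogues, markers and, for each of the 10 genes that spanned at least 2 on the log2 scale, the 3 genes of at least 10 FPKM with the smallest root mean squared difference in centred log2(FPKM + 1). For PEG10 these genes are not reported here. Alternatives were another pseudocount, filter, scaling, threshold, row choice and transcript length. Python 3.11.15, numpy 2.4.6, pandas 2.3.3, scipy 1.17.1 and matplotlib 3.10.9 were used.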

Additional observations from a re-analysis of the deposited data

How the results depend on the processing

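No paired analysis was possible because each population had 1 library, and for the same reason no library could be left out. Of 244 recomputed differences of single genes, 215 stayed within their counting error, 29 moved by more, and 0 of those past the threshold changed sign. Leaving out the filter, a filter of 5 FPKM and the other row choice could not move such a difference, and account for 40 each of the 215. Of the 29, 16 came with the other pseudocount, 8 with scaling by median ratio, 4 with scaling to a common nuclear total and 1 with SNURF summed. With a threshold of 2 on the log2 scale, 1 of the 10 genes was higher and 0 lower from CD31+CD34+ to CD43+, 1 was higher from BC1 to APLNR+ and 1 lower from APLNR+ to CD31+CD34+. Of the other imprinted genes, 1 was then higher and 1 lower from BC1 to APLNR+, likewise 1 and 1 from APLNR+ to CD31+CD34+ and 1 and 1 from BC1 to CD43+, and 2 were lower from CD31+CD34+ to CD43+. With a filter of 5 FPKM, 4 other imprinted genes were higher from APLNR+ to CD31+CD34+ and 3 lower from CD31+CD34+ to CD43+, by construction from fewer genes. With a pseudocount of 0.1 FPKM, 8 were lower from BC1 to CD43+, and of the 10 genes 3 were higher and 4 lower from APLNR+ to CD31+CD34+, in place of 2 and 3. The median difference of the 8 genes kept moved as well. From BC1 to CD43+ it was -0.00246, and became 0.21 with a pseudocount of 0.1, 0.15 with no filter, which takes all 10 genes, 0.069 with scaling by median ratio and -0.44 with a filter of 5 FPKM, so it has no settled sign. From APLNR+ to CD31+CD34+ it was -0.48, and became -0.62 with a pseudocount of 0.1, -0.79 with a filter of 5 FPKM and -0.53 with scaling by median ratio. From CD31+CD34+ to CD43+ it was -0.55, and became -0.62 with a pseudocount of 0.1 and -0.62 with scaling to a common nuclear total. Of 34 counting intervals, 9 changed width by over 1.5 times when the longest transcript replaced the median one. These 9 belong to H19, MEG3 and DLK1, and all became narrower. For MEG3 from APLNR+ to CD31+CD34+, the upper limit over the lower went from 13.6 to 2.11. Summing SNRPN with SNURF, an alternative chosen after seeing the data, changed the difference from BC1 to APLNR+ from -0.62 to -0.66. The cause was not tested for the other changes. Depth limits H19, MEG3 and PEG3, which rest on at most 35 fragments a library at the median transcript length.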

Other observations

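The proteins that keep imprints through cell division were followed as a list of 8 genes, of which 6 were at 1 FPKM or more in each library. None differed by 1 or more on the log2 scale in any of the 4 comparisons. ZFP57 and DPPA3, below 1 FPKM in every library, could not reach such a difference. TRIM28, the corepressor that zinc finger proteins bring to imprinting control elements, was the most abundant, at 508, 570, 438 and 404 FPKM in the order BC1, APLNR+, CD31+CD34+ and CD43+. DNMT1, which copies methylation to the new strand, was at 92.9, 77.4, 63.8 and 96.6 FPKM, and its partner UHRF1 at 32.0, 50.7, 34.6 and 32.0 FPKM. SETDB1, a histone methyltransferase, stayed between 15.3 and 19.8 FPKM in the first 3 populations and was at 20.3 FPKM in CD43+. CTCF, which binds the element between H19 and IGF2, stayed between 16.8 and 25.7 FPKM. The 2 zinc finger proteins that read methylated control elements differed in level: ZNF445 was between 5.54 and 10.6 FPKM, while ZFP57 did not exceed 0.0630 FPKM. DPPA3 was at 0.557 and 0.799 FPKM in BC1 and APLNR+ and at 0 in the later populations.

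Away from the loci of the 10 genes, GNAS, which encodes the stimulatory G protein alpha subunit, was the most abundant imprinted gene of the wider list, at 483, 719, 746 and 778 FPKM. It was chosen for mention after its values were seen. L3MBTL1, likewise chosen, was at 11.4, 13.2, 25.5 and 23.0 FPKM. Neither differed by 1 or more on the log2 scale in any of the 4 comparisons. These leave out BC1 against CD31+CD34+, between which L3MBTL1 differed by 1.09.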
